A study of Rattus norvegicus with 18 samples.

Results

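Kidneys of sham-operated rats were compared with one another on 6 two-colour cDNA arrays, R1 to R6, out of 18 arrays in the series. The 6 arrays were chosen by their labels, which give a sham rat for both channels, and not by any measured value. Of the 2304 cDNA clones printed on the array, each in duplicate, 1450 had a value on at least 1 of these arrays and 857 on 4 or more, and those 857 clones, 666 of them with 1 gene symbol, are described here. The other 12 arrays set a sham rat against a rat 35 days after 52 min of renal ischemia and reperfusion (an ARF rat, for acute renal failure), in 6 pairs with 2 arrays each, the dyes exchanged. The sham rats are called A to F, as in the labels. Each RNA is total RNA of a whole kidney of 1 rat, so fewer cells of a type and less RNA per cell cannot be told apart. Strain, sex, age and the time from sham surgery to collection are not given in the sources used here.

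A sham operation exposes the kidney without stopping its blood flow, so sham rats serve as the baseline of an ischemia study. The kidney is a series of tubule segments, each with its own transporters and enzymes: the proximal tubule reabsorbs most of the filtrate and carries much of the organ's drug and amino acid metabolism, the thick ascending limb and distal convoluted tubule reabsorb salt, and the collecting duct and inner medulla set the concentration of urine. Genes of such segments respond to diet, hydration, hormones and time of day, which is known from other work and was not recorded for these rats.

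The deposited value is a log ratio of the channels. Its log base and its direction are not given by the labels. Every sham-sham value below is read as channel 2 minus channel 1. Both arrays of an ARF-sham pair are read as ARF minus sham, whichever channel held the sham rat. That reading was assumed and not tested. The pair means, the dye effects and the dye-corrected values below rest on it. R1 set rat F against rat A, R2 rat E against A, R3 rat F against B, R4 rat D against B, R5 rat F against C and R6 rat E against D. Rat F was thus on 3 arrays, rat C on 1 and the others on 2. The arrays share rats, so they are not independent replicates, and n below counts arrays.

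Between 914 and 2232 of the 4608 spots had a value on these arrays. The SD of the log ratios over clones was 0.217 on R1, 0.408 on R2, 0.237 on R3, 0.281 on R4, 0.237 on R5 and 0.205 on R6, against 0.237 to 0.349 on the 12 ARF-sham arrays. R2 stood apart with the widest spread. Duplicate spots correlated with r = 0.60 to 0.85, compared with 0.754 to 0.905 on the ARF-sham arrays, and the error of a mean of 2 spots accounted for 8.0% to 25% of the variance over clones. Of the marker genes chosen for the tubule, 4 of 6 for the proximal tubule, 4 of 5 for the loop and distal tubule and 3 of 4 for the collecting duct were on the array. Each of these had a value on some sham-sham array. Values on 4 or more arrays were found for 2 proximal tubule markers, Hao2 and Lrp2, and for all 4 and all 3 of the others. None of the podocyte, lymphocyte, skeletal muscle and neuron markers chosen was on the array, and 1 of the 3 erythrocyte markers on it had a value.

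**Figure D1:**
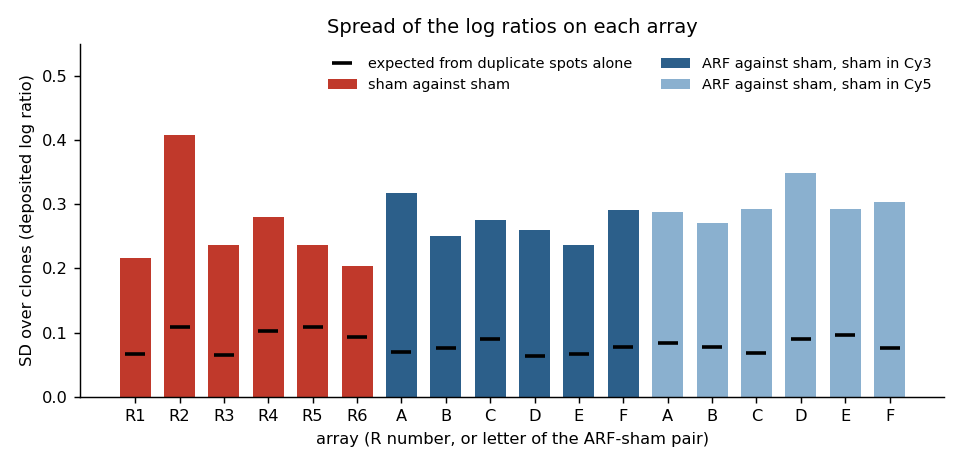
SD over clones of the deposited log ratio on each of the 18 arrays (bars, linear axis from 0), with the SD that duplicate spots alone would give to a mean of 2 spots (black dashes). R2 reaches 0.408, the other 5 sham-sham arrays lie between 0.205 and 0.281, and every bar lies above its dash.

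Checks of row order and of rat labels came before the comparison. In the deposited table the 6 arrays have their empty cells on other rows than the ARF-sham arrays, and exchanging adjacent blocks of 288 rows raised the mean correlation of filled cells between the 2 kinds of array from -0.011 to 0.488. A measure that played no part in choosing the exchange moved with it: across 668 clones, the mean sham-sham value and the dye effect measured on the ARF-sham arrays had r = 0.499 (Spearman's rho 0.503) after the exchange, and r = 0.055 (rho 0.062, 352 clones) in the order as deposited. The clones are not independent replicates, and these correlations describe the row order only.

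By the labels, R1, R3, R4, R6 and R2 form a closed loop through rats A, F, B, D and E, around which the true differences sum to 0. Over the 466 clones with all 5 arrays, the signed sum had an SD of 0.441. It would be 0.466 if the 5 arrays were unrelated and 0.356 if the sham-sham arrays were as noisy as the ARF-sham arrays, and duplicate spots alone would give 0.199. The loop therefore closed little better than unrelated arrays would, with unrelated taken as uncorrelated. Among arrays that share a rat, R1 and R3 (r = -0.246) and R4 and R6 (0.248) had the sign opposite to the labels. The labelled sign was seen for R3 with R5 (0.518), R3 with R4 (0.477), R1 with R2 (0.286), R2 with R6 (0.103) and R1 with R5 (0.055). Arrays with no rat in common reached r = 0.501 (R2 and R4). The sums of single genes ranged from near 0 for Egf (-0.00074) and Igfbp5 (-0.030) to -1.18 for Cyp2e1, 1.73 for Spink1l and 1.94 for Ctss. A test without the rat labels is given as well for the count of clones, the 5 clones that passed and Fasn, Ccn2 and Spink1l. Apart from the moderation, it differs from the main test only for clones measured on all 5 arrays of the loop. The contrasts of single rats have no such test.

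The first question was which genes differ between uninjured rats by more than array noise. The noise of a clone came mainly from the dye-exchanged ARF-sham arrays, which hybridised the same 2 RNAs on 2 arrays. The loop gave 1 more degree of freedom to clones with values on all 5 of its arrays. The SD of duplicate-spot differences had a median of 0.195 on the sham-sham arrays. It was 0.146 and 0.162 on the first and second arrays of the pairs. R1 (0.134) and R3 (0.129) lay below both. The test assumes equal noise on all arrays, so its p-values are too small where the sham-sham arrays were noisier. The size of a difference is given as the root mean square (RMS) of the sham-sham values after subtraction of the clone's dye effect. Of 759 clones with enough repeats to be tested, 603 with 1 symbol, 5 passed an adjusted p of 0.05 (0.659% of clones tested; limma-moderated F test, Benjamini-Hochberg), and 110 (14.5%) had an unadjusted p under 0.05. The median RMS was 0.178 beside a median noise SD of 0.142. In all, 83 clones had an RMS above 0.3 and 10 above 0.5. When each array was given a free value of its own, so that no rat label was used, 9 of 747 clones passed (1.2%). When the spread between ARF-sham pairs was let into the noise, 0 of 813 passed in the same limma test and 26 had an unadjusted p under 0.05.

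**Figure D2:**
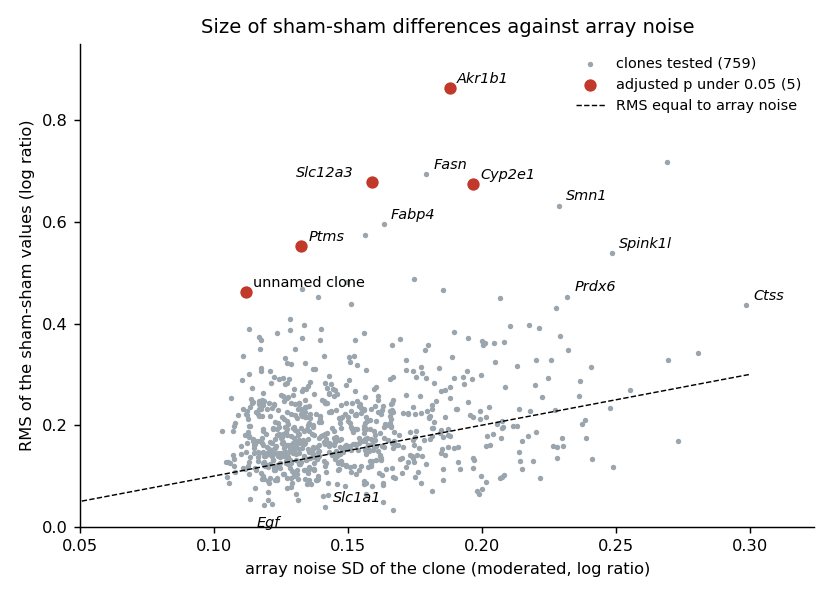
Each point is 1 of the 759 clones tested, with its moderated array noise SD (x axis) and the RMS of its dye-corrected sham-sham values (y axis), both in units of the deposited log ratio. The 5 clones past the threshold (red) combine an RMS of 0.462 to 0.863 with a noise SD of 0.112 to 0.197, while Smn1, Spink1l and Ctss have a noise SD of 0.229 to 0.298.

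The largest difference was in Akr1b1, aldose reductase, which makes the osmolyte sorbitol in the medulla. Its log ratio was -1.15 on R1, -1.06 on R2, -0.46 on R4, 0.66 on R5 and 0.037 on R6, and it had no value on R3. The arrays with rat A in channel 1 were thus the lowest and the array with rat C in channel 1 the highest. Its RMS was 0.863 with a noise SD of 0.188 (adjusted p = 0.0284, n = 5 arrays), and it passed with each array left out in turn (adjusted p from 0.0077 to 0.039).

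Cyp2e1 encodes a cytochrome P450 that oxidises ethanol, ketones and small solvents and is present in the proximal tubule. Its values were -0.78 on R1, -0.68 on R2, 1.00 on R3, 0.15 on R4, 0.76 on R5 and -0.23 on R6. The 3 arrays labelled with rat F gave -0.78 against A, 1.00 against B and 0.76 against C. By the labels these values thus spanned both signs against 1 common rat. The RMS was 0.674 with a noise SD of 0.197 (adjusted p = 0.0402, n = 6). Without R5 the adjusted p was 0.0634, and with a free value per array it was 0.0032. The free values leave its loop sum of -1.18 out of the noise.

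Ptms encodes parathymosin, a small acidic nuclear protein. It read -0.26 on R1, 0.91 on R2, -0.12 on R5 and -0.55 on R6, and it had no value on R3 and R4. R2 was high and the other 3 arrays were below 0. The RMS was 0.552 (noise SD 0.132, adjusted p = 0.0284, n = 4). With 4 arrays it has no value for rat B, and leaving out R1, R2, R5 or R6 drops it below the minimum of 4 arrays, so its dependence on R2 was not tested.

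Slc12a3, the thiazide-sensitive sodium chloride cotransporter of the distal convoluted tubule, was below 0 on each of the 5 arrays that measured it. It read -0.76 on R1, -0.10 on R2, -0.39 on R4, -0.80 on R5 and -1.41 on R6. R6 was the lowest and R2 the nearest to 0. The RMS was 0.678 (noise SD 0.159, adjusted p = 0.0411, n = 5). The call ended without R5 (adjusted p = 0.0531) and without R6 (0.101, with an RMS of 0.439). The last of the 5 clones has no gene name in the platform annotation; it was below 0 on all 6 arrays, from -0.94 on R2 to -0.12 on R3, and did not pass without R2 (adjusted p = 0.155). With a free value per array the adjusted p was 0.0123 for Akr1b1 and for Ptms, 0.0198 for Slc12a3 and 0.0156 for the unnamed clone. Akr1b1, Ptms and Slc12a3 had no value on R3, so the loop was open for them. The main test then already fits each array freely, and for these genes this setting is no separate check. The unnamed clone was measured on every array of the loop, so the setting leaves its loop sum out of the noise.

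The promoter table from RefSeq (build GRCr8) has an entry for 3 of the 4 named genes, all but Akr1b1. The 120 bases before their start sites are given as genomic context for the transcripts measured, from the plus strand for Cyp2e1 (chr1:205269847-205269966) and from the minus strand for Slc12a3 (chr19:10675051-10675170) and Ptms (chr4:159412838-159412957). Capitals mark the letters TATAAA, searched on both strands.
Slc12a3: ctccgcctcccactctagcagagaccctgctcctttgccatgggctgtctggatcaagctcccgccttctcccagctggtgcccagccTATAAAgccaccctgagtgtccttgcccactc
Cyp2e1: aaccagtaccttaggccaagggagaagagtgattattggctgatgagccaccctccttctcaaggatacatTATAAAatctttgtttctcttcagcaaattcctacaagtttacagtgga
Ptms: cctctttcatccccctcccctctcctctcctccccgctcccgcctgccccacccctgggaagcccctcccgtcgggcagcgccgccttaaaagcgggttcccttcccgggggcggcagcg
The motif begins 32 bases before the start of Slc12a3 and 49 before that of Cyp2e1, and these letters are not in the window of Ptms. Of 33469 promoters in the table, 6.66% hold the motif in a window of this length. The GC content was 61.7% for Slc12a3, 40.8% for Cyp2e1 and 73.3% for Ptms, beside a median of 53.3% over all promoters. The arrays measure transcripts and say nothing of how these promoters are used.

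**Figure D3:**
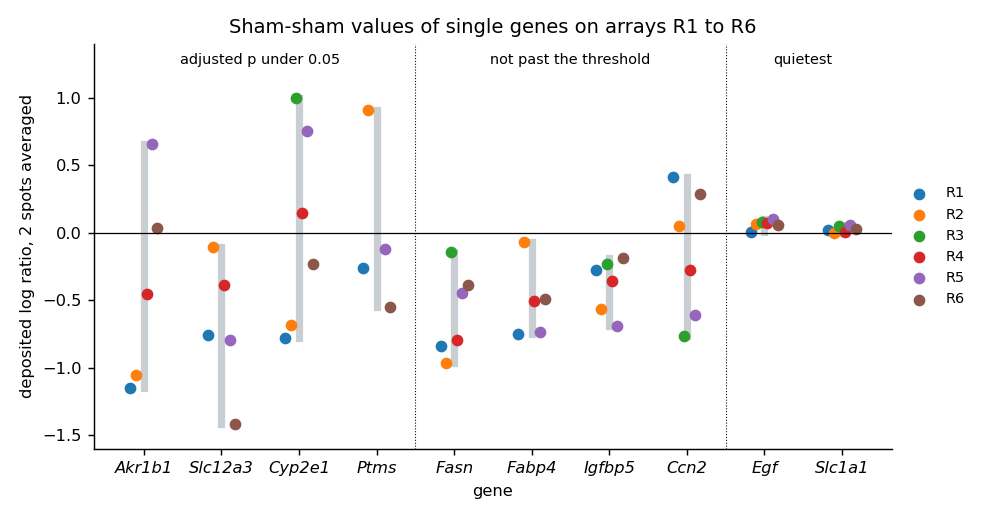
Deposited log ratio (y axis, mean of 2 spots) of 10 genes on the sham-sham arrays R1 to R6 (coloured points), with the range of each gene as a grey bar. Akr1b1, Cyp2e1 and Ptms lie on both sides of 0, Slc12a3, Fasn, Fabp4 and Igfbp5 lie below 0 on every array that measured them, and the values of Egf and Slc1a1 lie between 0.0013 and 0.106.

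The genes next in RMS did not pass the threshold, and several were below 0 on every array. Fasn, the enzyme that builds palmitate, read -0.83 on R1, -0.97 on R2, -0.14 on R3, -0.80 on R4, -0.45 on R5 and -0.38 on R6. No array was above 0, and R3 was nearest to it. Its RMS was 0.694 with an adjusted p of 0.069. With a free value per array it passed (adjusted p = 0.0123), a setting in which its loop sum of -0.91 is not counted as noise. Igfbp5, a binding protein of insulin-like growth factors, ran from -0.69 to -0.19 with a median of -0.32 (RMS 0.452, adjusted p = 0.069). Ppt2, a lysosomal thioesterase, ran from -0.80 to -0.11 with a median of -0.37 (0.468, adjusted p = 0.069). Fabp4, the fatty acid-binding protein of adipocytes, had no value on R3 and ran from -0.75 to -0.068 with a median of -0.50 (0.596, adjusted p = 0.112).

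All 6 arrays were labelled in 1 dye orientation, so a value of 1 sign on each of them cannot be told apart from a dye effect that these arrays alone carry. The dye effect measured on the ARF-sham arrays was 0.035 for Fasn, 0.029 for Igfbp5, 0.026 for Ppt2, 0.035 for Fabp4 and -0.18 for Slc12a3. With a common value of their own allowed to the sham-sham arrays, the RMS fell to 0.292 for Fasn (adjusted p = 0.219), 0.182 for Igfbp5 (0.552), 0.203 for Ppt2 (0.384), 0.246 for Fabp4 (0.454) and 0.442 for Slc12a3 (0.106). Under the same allowance Akr1b1 had an RMS of 0.679 (adjusted p = 0.0339), Cyp2e1 0.673 (0.0018) and Ptms 0.551 (0.0155). Each array also has a free value under this allowance, so loop sums are not counted as noise. The unnamed clone did not pass under it (RMS 0.273, adjusted p = 0.151). Of the 462 clones measured on all 6 arrays, 55 were below 0 and 27 above 0 on every array.

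Genes whose values took both signs without passing the main threshold included Ccn2 and Spink1l. Ccn2, connective tissue growth factor, read 0.42 on R1, 0.048 on R2, -0.76 on R3, -0.28 on R4, -0.61 on R5 and 0.29 on R6 (RMS 0.466, adjusted p = 0.155). The arrays with rat B or C in channel 1 were its low ones. Spink1l, a Kazal-type serine protease inhibitor, read 0.92 on R1, 0.65 on R2, -0.37 on R3, 0.71 on R4, -0.026 on R5 and 0.39 on R6 (0.538, adjusted p = 0.32). Both passed when each array had a free value (adjusted p = 0.0123 each), a setting in which their loop sums of 1.14 and 1.73 are not counted as noise. Egr1, an immediate early transcription factor chosen here after its values were seen, had too few repeats to be tested. Its values were 0.56 on R1, 0.62 on R2, -0.64 on R3, -0.76 on R5 and 0.37 on R6, with the same sign as Ccn2 on each of these 5 arrays.

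Other large values came from 1 or 2 arrays. Ech1, an isomerase of fatty acid oxidation, read 0.94 on R4 and 0.042 to 0.26 on the other 3 arrays that measured it. Prdx6, a peroxiredoxin, read -0.94 on R2 and -0.62 on R3 but -0.19 to 0.053 on the rest. Lyz2, the lysozyme of macrophages, read 0.88 on R3 and -0.27 to 0.26 on the other 5. Tmbim6, Bax inhibitor 1, read -0.81 on R2 and -0.20 to -0.13 on R4, R5 and R6. Rpl27a, a protein of the large ribosomal subunit, read 0.93 on R2 and -0.067 to 0.36 on the others. Of these, Rpl27a and Tmbim6 came nearest to the threshold (adjusted p = 0.069 each). R2 gave the largest deviation of a clone in 301 of the 759 clones tested, R5 in 138, R1 in 96, R4 in 94, R6 in 87 and R3, with the fewest values, in 43. Without R2 the median RMS over clones was 0.159.

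At the other end, 8 genes measured on all 6 arrays had the smallest differences. Slc1a1, a glutamate transporter of the brush border, lay between 0.0013 and 0.059 (RMS 0.038). Egf, the growth factor made by the distal tubule, lay between 0.0041 and 0.106 (RMS 0.042). The other 6 were Rpl36 (0.054), the prion protein Prnp (0.061), the phosphoinositide phosphatase Synj2 (0.064), the RNA-binding protein Ybx1 (0.076), Rpl27l1 (0.080) and the stress-response factor Ddit3 (0.081). Their RMS lay below the noise SD of 0.113 to 0.199 fitted for the same clones. These arrays show no difference larger than noise for them and cannot show a smaller one.

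The gene lists were next read by their medians beside all clones tested, of which 14.5% had an unadjusted p under 0.05 and the median RMS was 0.178. No list was tested as a set. Members named here beyond those already described were chosen after their values were seen. Of the proximal tubule list, 14 of 41 genes were tested, 4 had an unadjusted p under 0.05 and 1, Cyp2e1, passed, with a median RMS of 0.218. Anpep, the brush border aminopeptidase N, followed the signs of Cyp2e1 with -0.49 on R1, -0.46 on R2, 0.15 on R3, 0.049 on R4, 0.29 on R5 and -0.26 on R6 (RMS 0.324, adjusted p = 0.219). Gatm had the signs of Cyp2e1 on the 5 arrays that measured it, from -0.30 on R1 to 0.30 on R5 and near 0 on R2 (-0.0035; RMS 0.215, adjusted p = 0.516). Every other member tested differed in sign from Cyp2e1 on some array. Lrp2 did so on R5 alone, Hao2 on R6 alone, and Pdzk1 and Slc17a1 on R4 alone. Cyp2d4 had a larger RMS than Anpep (0.367) and was below 0 on all 6 arrays, from -0.515 on R2 to -0.105 on R5. Khk was also below 0 on all 6 (RMS 0.249). Lrp2, the endocytic receptor megalin, lay between -0.26 and 0.22 (RMS 0.162), and Kap, the androgen-regulated protein of the proximal tubule, between 0.0024 and 0.44 (RMS 0.134). The proximal list as a whole had a median log ratio of -0.15 on R1, -0.28 on R2, 0.15 on R3, -0.012 on R4, 0.15 on R5 and -0.11 on R6, and that of all clones lay between -0.12 on R2 and 0.011 on R5.

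Of the loop and distal tubule list, 6 of 22 genes were tested and only Slc12a3 passed. Other genes of these segments had smaller RMS values: Umod, the urinary glycoprotein uromodulin of the thick limb, lay between -0.26 and 0.047 (RMS 0.168), and Slc12a1, the cotransporter of the thick limb, between -0.31 and 0.16 (RMS 0.189). Klk1b3, a tissue kallikrein, lay between 0.025 and 0.36 (RMS 0.148). The collecting duct list had a median RMS of 0.242 over 5 genes tested, 2 of them with an unadjusted p under 0.05. Hsd11b2, which protects the mineralocorticoid receptor from glucocorticoids, ran from -0.40 to -0.021 (RMS 0.264, adjusted p = 0.246), and the water channel Aqp3 from -0.20 to -0.065 (RMS 0.160). Akr1b1 stood beside Fxyd2, a regulator of the sodium pump (RMS 0.105), and Cryab, a small heat shock protein (0.248), among the 3 genes tested of the osmolyte list.

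Lipid and sterol synthesis had the highest median RMS of the lists with 3 or more tested genes, 0.374 over 5 of 25 genes, 2 of them with an unadjusted p under 0.05. Beside Fasn, malic enzyme Me1 ran from -0.46 to -0.058 (RMS 0.374, adjusted p = 0.155), the desaturase Scd from -0.70 to 0.20 (0.375, adjusted p = 0.468) and ATP citrate lyase Acly from -0.46 to 0.12 (0.276, adjusted p = 0.616). Dhcr7, of cholesterol synthesis, lay between -0.16 and 0.17 (0.143). Fatty acid oxidation and peroxisome genes had a median RMS of 0.190 over 12 genes, and Fabp4 and Ech1 were the highest of them. The skeletal muscle and adipocyte list rested on 3 genes, Fabp4, the lipoprotein lipase Lpl and Pvalb. Lpl was below 0 on all 6 arrays, from -0.67 on R5 to -0.13 on R2 (RMS 0.281, adjusted p = 0.273). Fabp4 was the 1 adipocyte marker of the 3 chosen that was on the array, so the part of adipose tissue in its values was not tested.

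Macrophage and antigen presentation genes had a median RMS of 0.336 over 7 of 25 genes, and 2 had an unadjusted p under 0.05. RT1-Db1, the beta chain of a class II MHC molecule, read 0.29 on R1, 0.41 on R2, 0.049 on R3, 0.49 on R4, -0.33 on R5 and -0.41 on R6 (RMS 0.349, adjusted p = 0.060). The protease Ctsd ran from -0.54 to -0.031 and was below 0 on all 6 arrays (0.336, adjusted p = 0.082). Ctss, another lysosomal protease, ran from -0.33 to 0.86 with a noise SD of 0.298 (0.436, adjusted p = 0.726). RT1-DMb, which loads peptides on class II molecules, had the sign of RT1-Db1 on R1, R3, R4, R5 and R6 (0.058, 0.057, 0.33, -0.23 and -0.17) but not on R2 (-0.027). Every other tested member of the list also differed in sign from RT1-Db1 on some array. On R1, for example, Lyz2 (-0.27), Ctsb (-0.16) and Apoe (-0.12) were below 0. The class I gene RT1-A1 was below 0 on all 5 arrays that measured it (-0.58 to -0.081, RMS 0.382, adjusted p = 0.112), whereas its light chain B2m ran from -0.075 to 0.28 (RMS 0.155). No lymphocyte, neuron or erythrocyte marker list had a gene that could be tested.

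Growth factor and IGF-binding protein genes had a median RMS of 0.315 over 6 genes, with Ccn2 and Igfbp5 high and Egf low. Igfbp3 ran from -0.052 to 0.63 (RMS 0.303, adjusted p = 0.369) and Igf1 from -0.29 to 0.011 (RMS 0.328, adjusted p = 0.694). Complement and acute phase genes rested on 3 genes, of which C1s, a protease of the classical pathway, ran from -0.39 to 0.65 (RMS 0.396, adjusted p = 0.40). Of smooth muscle genes, Tagln ran from -0.32 to 0.44 (RMS 0.291) and Tpm2 from -0.32 to 0.66 (RMS 0.328). The part of vessel or immune cell content in these values was not tested.

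The 28 ribosomal protein genes tested had a median RMS of 0.147 with 2 at an unadjusted p under 0.05, and those 2, Rpl27a and Rplp0, had 0.408 and 0.307. The 16 genes of oxidative phosphorylation and the citrate cycle had 0.167, with the cytoplasmic malate dehydrogenase Mdh1 as the only member at an unadjusted p under 0.05. Antioxidant and detoxification genes had 0.156 over 16 genes, with Prdx6 the highest. The clock list rested on Dbp (-0.20 to 0.24, RMS 0.182) and Nr1d1 (-0.22 to 0.25, RMS 0.174), both near the median of all clones. Of the sex-biased list, Kap, Odc1 and Gusb were tested, and none had an RMS above 0.134.

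**Figure D4:**
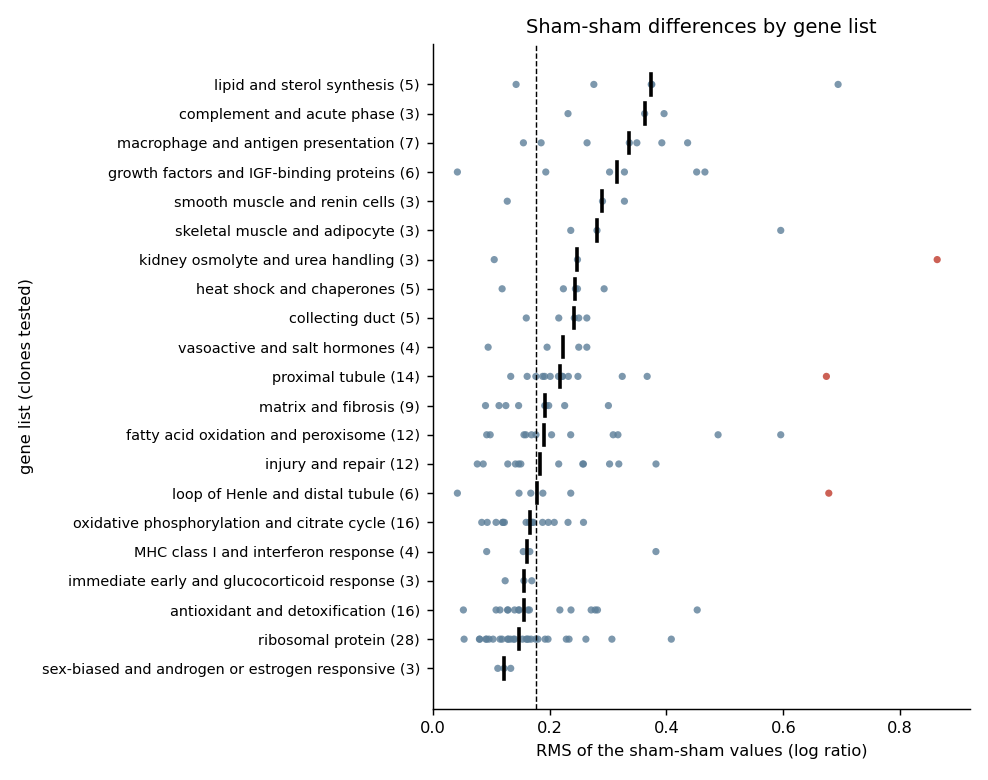
RMS of the dye-corrected sham-sham values (x axis, log ratio) of each tested clone in the lists with 3 or more tested clones, with the list's median (black bar) and the median of all clones (dashed line, 0.178). Red points passed the threshold. Medians run from 0.122 for the sex-biased list to 0.374 for lipid and sterol synthesis.

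The labels allow a level for each sham rat relative to the other 5 in 656 clones. In 3936 contrasts (656 clones and 6 rats) none passed (0.0%; limma-moderated t, Benjamini-Hochberg), the smallest adjusted p was 0.0526 and 372 contrasts had an unadjusted p under 0.05. Those 372 fell on rat E in 95 clones, A in 85, D in 60, C in 54, B in 48 and F in 30. The SD of the levels over clones was highest for rat C, which was on 1 array (0.193, median standard error 0.183), and lowest for rat F, which was on 3 (0.132, standard error 0.110). Because the loop closed little better than unrelated arrays, the levels of single rats rest on labels that the values did not bear out, and no gene is assigned to a rat.

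Patterns across the arrays were also matched gene by gene, as a description of 5 or 6 arrays that share rats. The search covered the clones with 1 symbol among the 462 measured on all 6 arrays. Whether a search of that many clones over so few arrays gives such values of r by chance was not tested. The clones most like Akr1b1 were Rpl37l1 (Pearson's r = 0.968), the metalloprotease Mep1b (0.955) and Rabggtb (0.948), each over 5 arrays. Those most like Slc12a3 were Cx3cl1 (0.945), Bcat2 (0.902) and Ddit3 (0.899) over 5 arrays, and those most like Fasn were Cox6a1 (0.971), Hspe1 (0.947) and Nupr1 (0.944) over 6. Several of these are quiet genes: Rpl37l1 had an RMS of 0.154, Cx3cl1 0.087 and Ddit3 0.081, so their likeness is one of shape and not of size.

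The last comparison set the sham-sham values beside the ARF-sham pairs for genes known from earlier results of these data to differ or vary there. The 2 comparisons share the sham rats, so values are given side by side with no test. The sign of a sham-sham value depends on which rat was in which channel and has no counterpart in the pairs, and single arrays keep the dye effect that a pair mean cancels. Egf differed by -0.34 ± 0.16 (SD, n = 6 pairs, -0.60 to -0.20) and stayed between 0.0041 and 0.106 on the sham-sham arrays. The fatty acid-binding protein Fabp3 had -0.31 ± 0.12 (n = 6) in the pairs, beside 0.052 to 0.28. The fractalkine gene Cx3cl1 had 0.24 ± 0.085 (n = 6, 0.15 to 0.36), beside -0.083 to 0.16, and the cyclin Ccnd1 -0.56 ± 0.16 (n = 6, -0.74 to -0.31), beside -0.34 to -0.019. The dye effect measured on the ARF-sham arrays was 0.094 for Egf, 0.12 for Fabp3, 0.025 for Cx3cl1 and -0.043 for Ccnd1.

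Sham-sham values of the next genes reached farther from 0. S100a4, a calcium-binding protein of fibroblasts, had 0.70 ± 0.23 (n = 4 pairs) and sham-sham values of -0.50 on R1, -0.14 on R2, -0.18 on R4 and 0.28 on R6. The retinol carrier Rbp4 had -0.78 ± 0.40 (n = 6) in the pairs, and read -0.54 on R1, -0.25 on R2, 0.15 on R4 and 0.40 on R6 among shams. Cryab had -0.61 ± 0.32 (n = 6), beside -0.21 to 0.43. Col1a1 had 0.53 ± 0.21 (n = 4), beside 0.49 on R2 and -0.013 to 0.13 on the other 3 arrays. Slc12a3 and Fasn had pair means of 0.12 ± 0.27 (n = 5) and 0.20 ± 0.40 (n = 4), beside sham-sham medians of -0.76 and -0.62. Those medians cannot be told apart from a dye effect of the sham-sham arrays, so the sizes are not ranked. Among the injury genes Spp1, Clu and Vim the pairs were the wider ones, with SDs of 0.770, 0.542 and 0.476 beside RMS values of 0.257, 0.142 and 0.076 among shams. Over the 465 clones tested with all 6 pairs, the median RMS of the sham-sham arrays was 0.182 and the median SD of the pair means was 0.169, quantities that differ in kind since a pair mean averages 2 arrays.

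**Figure D5:**
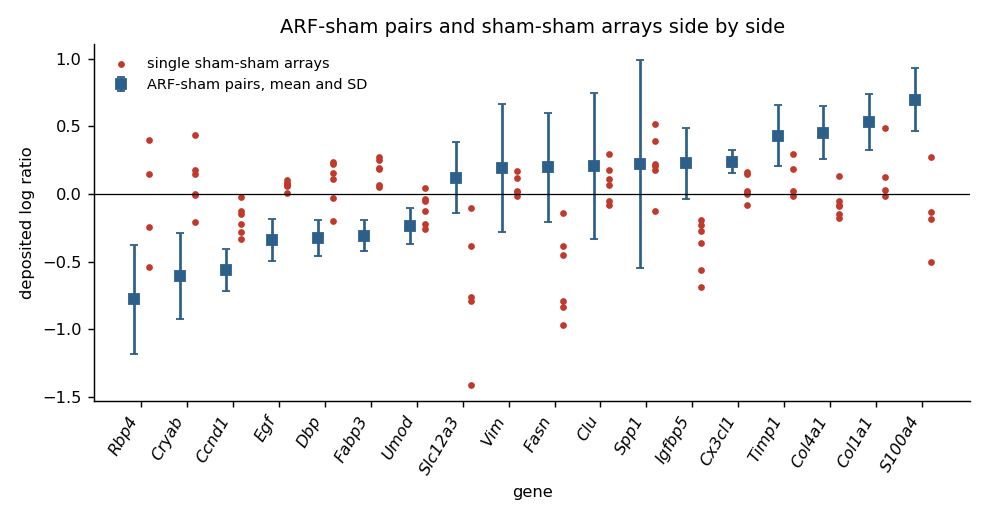
Deposited log ratio (y axis) of 18 genes: mean and SD over the ARF-sham pairs (blue squares with bars) and the single sham-sham arrays (red points). The sham-sham points of Egf lie between 0.0041 and 0.106. Those of Slc12a3 and Fasn reach -1.41 and -0.97 and may hold a dye effect that the pair means cancel.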

How the data were processed

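Spotted cDNA arrays compared 2 labelled samples each. The deposited values are normalized log values of both channels' ratio, per the labels, which name ImaGene 4.1 for the raw data; log base and direction are not given in the sources used here. Every array had a mean of 0 as deposited by the authors. The 2 spots of a clone, 1152 rows apart, were averaged, and adjacent blocks of 288 rows were exchanged in the sham-sham columns. Symbols came from the platform annotation, updated through a RefSeq table for GRCr8 (1483 of 1489 clones with 1 symbol matched).

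Each clone was fitted on all 18 arrays (R 4.3.3, limma 3.58.1) with 5 sham rat differences, 1 effect per ARF-sham pair and a dye effect, against the same model with equal sham rats. The residual variance was moderated with squeezeVar. Clones needed values on 4 sham-sham arrays and 2 residual degrees of freedom, and a call is a Benjamini-Hochberg adjusted p under 0.05. Per the labels, 1 pair of RNAs was hybridised on both arrays of a pair. Each rat gave 1 RNA, so p-values measure array noise and not spread over animals, and the number of arrays limits the precision. On simulated data (759 clones, 200 changed, 10 simulations) 4.23% of calls were false. When rat levels had an SD of 0.4, 0.2 and 0.1, 97.7%, 51.5% and 6.33% of clones were found. The simulation took the rat labels as true and gave a clone the same noise SD on all 18 arrays. Its rates therefore do not cover noisier sham-sham arrays or a loop that does not close, as in the measured values.

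Named genes were the 25 with 1 symbol that passed or came next by RMS, the 8 quietest with values on all 6 arrays, members of 28 lists that passed or else had the largest RMS, genes known from earlier results, and the 3 most like each of the 3 largest. The members, lists and rules were chosen with earlier results of these data known.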

Additional observations from a re-analysis of the deposited data

Results flagged for a closer look

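Of 59 groups of 4 to 6 values examined for a single sample far from the rest (Dixon's test, which flags about 1 group in 20 by chance), 2 stood out, and in both the array was R2. The SD over clones of R2 was 0.408, with 0.205 to 0.281 on the other 5 sham-sham arrays. Tmbim6 read -0.81 on R2, with -0.20 to -0.13 on the other 3 arrays that measured it. The part of R2 as an array in the value of Tmbim6 was not tested.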

How the results depend on the processing

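The main test called 5 of 759 clones. It called 12 with median centring per block of rows, 11 without a dye term, 26 with the opposite dye sign on the sham-sham arrays, 10 with both spots required, 3 without moderation, 2 with values on all 6 arrays required and 1 with arrays weighted by duplicate-spot variance. Of the 3 called without moderation, only the unnamed clone was among the 5 (F test, adjusted p = 0.0475). Akr1b1 and Slc12a3 (0.209 each), Cyp2e1 (0.166) and Ptms (0.122) did not pass there. The 1 called with weighting was Cyp2e1 (adjusted p = 0.0472). With noise from the sham-sham arrays alone, limma called 0 of 462 (15 at an unadjusted p under 0.05), and without the exchange of row blocks 0 of 424 (63). Of the 5 clones of the main call, 2 could be tested in the first of these settings and 1 in the second. With all 6 arrays required 2 of the 5 could be tested, and both passed. For the pairing of the dye-exchanged arrays, the fit with no replicate block called 0 of 813 clones (26), because the spread between ARF rats then counts as noise. Leaving out each array in turn gave 2 (without R5) to 16 (without R3); leaving out any array of the loop removes the loop's mismatch from the noise. A free value per array, chosen after seeing the data, called 9. Array median centring, robust moderation, values on 3 or more arrays and a common value of their own for the sham-sham arrays kept the count within 1.5 times.

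The contrasts of single rats stayed at 0 in 3 of 4 alternatives and came to 2 without a dye term. Of the alternatives tested for each gene, Cyp2e1 passed in 16 of 20, Akr1b1 in 15 of 18, Ptms in 10 of 13, Slc12a3 in 10 of 17 and Fasn in 9 of 20. Over the 55 named genes, 948 of 1011 values kept their side of the threshold, 17 lost a call and 46 gained one. Only 4 of these genes passed the main test. The others had no call to lose, so all 17 lost calls fell on those 4. Taking values of exactly 0 as empty changed nothing, since no value was 0. Precision is limited by 1 RNA per rat and 1 to 3 arrays per rat.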
